A study of Mus musculus with 6 samples.

Results

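The genes described here are 8 aquaporins, the channels that carry water and in some cases glycerol across cell membranes, and 2 vasopressin receptors. They are Aqp1, Aqp2, Aqp3, Aqp4, Aqp5, Aqp6, Aqp7, Aqp11, Avpr2 and Avpr1a, which were chosen by gene symbol and make up 10 of the 24422 genes counted. Poly-A RNA was sequenced from whole kidneys of C57BL/6 mice at postnatal day 13, all on an iron sufficient diet of 220 ppm iron. The 3 Control kidneys carry the genotype label wild type. The 3 TfR1 knockout kidneys are labeled Tfr1f/f;SixCre, in which the gene of the transferrin receptor, the cell's entrance for iron-loaded transferrin, is floxed and deleted by Six2Cre in nephron progenitors and the cells that come from them. The study describes cells that escaped the deletion, and the samples are whole kidneys, so that cells outside the Cre lineage were measured together with cells inside it. The question was which of these transcripts differ between knockout and Control kidneys.

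Water leaves the tubule through different channels along its length. AQP1 is always open in the membranes of the proximal tubule and the thin descending limb. In the principal cells of the collecting duct, vasopressin binds the V2 receptor (Avpr2), cAMP rises, and vesicles carrying AQP2 fuse with the luminal membrane, while AQP3 and AQP4 let the water out on the blood side. The collecting duct grows from the ureteric bud and is not a product of the nephron progenitors, whereas the tubule from the glomerulus to the connecting segment is. In kidneys of this knockout the study reports cysts stained for both AQP2 and Calbindin. A figure legend of the study assigns them to connecting segments. Its text places them, apparently, at the junction of nephron and cortical collecting duct. Aqp2 counts from whole kidneys therefore cannot be assigned to the collecting duct alone.

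The libraries held 16591156 to 22898008 counts each, and values below are counts normalized for library size by the median-ratio method unless a sentence says otherwise. Markers of several nephron segments were present in every library, among them Umod of the thick ascending limb (at least 1475 normalized counts) and Slc34a1 of the proximal tubule (at least 15737). Umod was nonetheless lower in knockout libraries 1 to 3 (4012, 3892 and 1475) than in Control libraries 1 to 3 (44916, 50178 and 22552, DESeq2 adjusted p 1.16e-15). The targeted gene, Tfrc, had 5534, 6485 and 3667 normalized counts in Control libraries 1 to 3 and 6976, 4045 and 5898 in knockout libraries 1 to 3, and it did not pass the test (DESeq2 adjusted p 0.852), so its total count does not check the labels. Control replicate 3 stood apart from the other Control libraries. It was the lowest of the group for 10 of the 10 genes, and its summed marker levels were lower for the proximal tubule (113404 normalized counts against 212905 and 222055 in Control libraries 1 and 2) and the thick ascending limb (58884 against 116461 and 129814) and higher for endothelium (41047 against 26468 and 25851). TfR1 knockout replicate 2 was the highest knockout library for 6 genes and the lowest for 3. Since kidneys were measured in bulk, fewer cells of a type and less RNA per cell cannot be told apart.

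Of the 10 genes, Aqp2 and Aqp3 were higher in knockout kidneys and Aqp1 was lower at an adjusted p under 0.05 (DESeq2 Wald test, adjusted over 16468 genes). The other 6 genes with an adjusted p did not pass, and DESeq2 gave no p-value for Aqp5. Over all genes tested, 7.76% were called higher, 7.2% lower and 15.0% in either direction. With a fold change of at least 2 added, 2 genes here (Aqp2 and Aqp3) were called higher and 0 lower, against 4.42% and 4.46% of all genes. The quasi-likelihood test of edgeR, which calls fewer genes, called 1 of the 10 higher (Aqp2) and 0 lower. Its shares over 15308 genes were 3.22% higher, 2.8% lower and 6.02% in either direction. The limma voom test also called only Aqp2 of these genes, against 6.15% of all genes. In 3 genes (Aqp2, Aqp3 and Aqp5) every knockout library stood above every Control library, and in 0 genes every knockout library stood below, where 16.9% of all genes did the one and 16.9% the other.

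**Figure D1:**
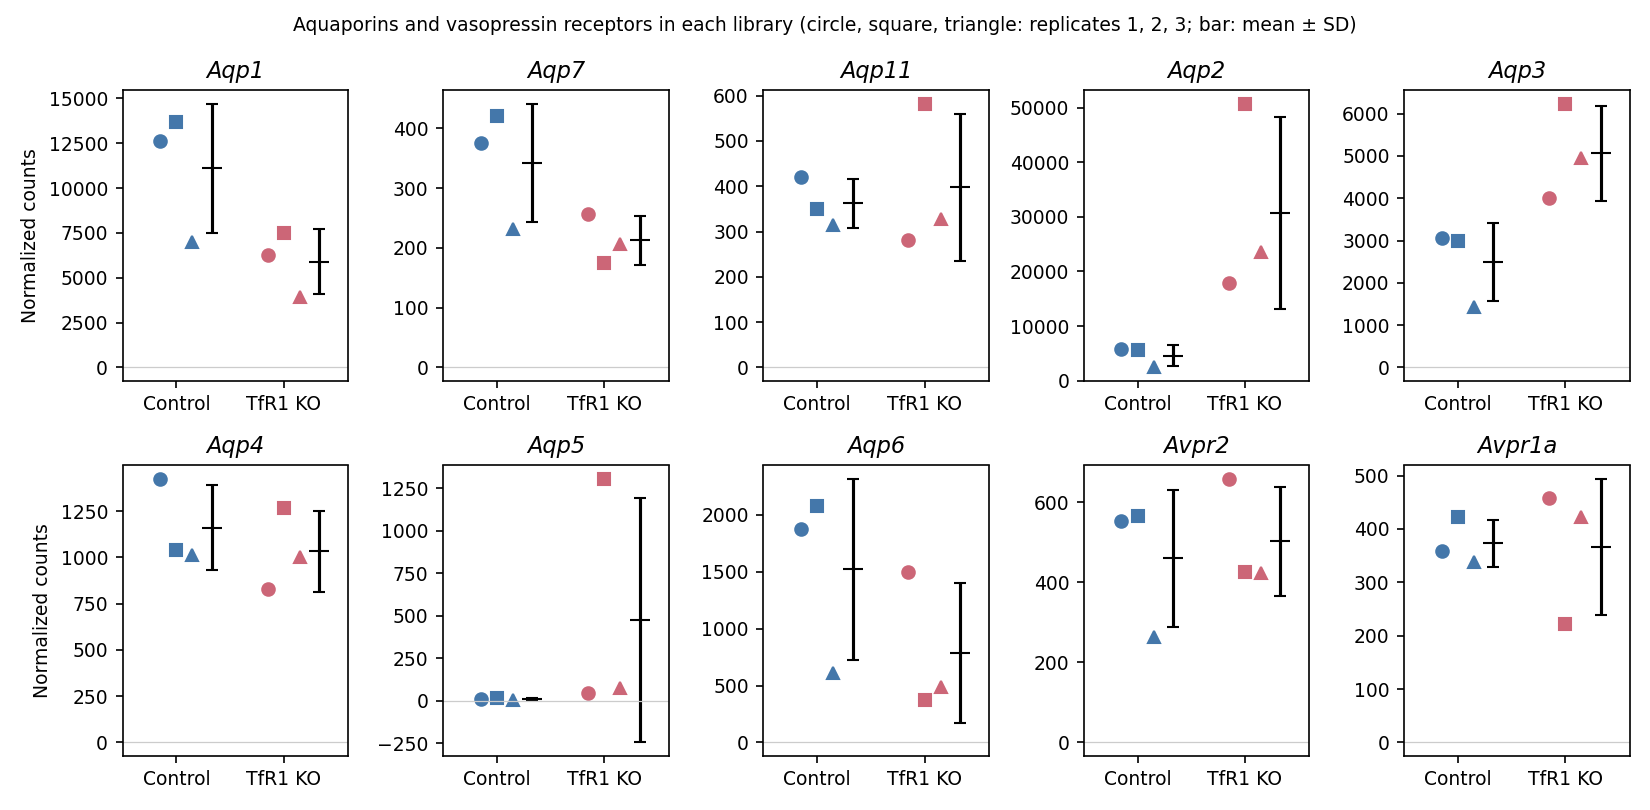
Normalized counts (vertical axes, each with its own scale) of the 10 genes in the 3 Control and 3 TfR1 knockout libraries, with circles, squares and triangles for replicates 1, 2 and 3 and a bar for the mean ± SD. The groups do not overlap for Aqp2, Aqp3 and Aqp5, and knockout replicate 2 stands far above the others for Aqp5, at 1305.

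The receptors that start the response did not pass the test. Avpr2, which couples to the stimulatory G protein and cAMP, lies on chromosome X (71137441 to 71140841, plus strand, NCBIM37 build). It had 552, 564 and 263 normalized counts in Control libraries 1 to 3 and 658, 425 and 422 in knockout libraries 1 to 3. The ranges overlapped, and the lowest value was that of Control replicate 3. The means were 459.6 ± 171 and 502 ± 136 (SD, n = 3 each), with a log2 fold change of 0.13 (SE 0.35, 95% interval -0.56 to 0.81, DESeq2 adjusted p 0.858). The interval holds both a 1.76-fold rise and a fall to 0.678 of the Control level. Its sign changed without Control replicate 3 (-0.16) or without knockout replicate 1 (-0.12). The gene overlaps L1cam and Arhgap4 on the opposite strand, and with a counting strand that is not given in the sources used here, reads in the overlaps cannot be assigned to one of them with certainty.

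Avpr1a encodes the V1a receptor, which acts through phospholipase C and calcium and is known from vascular smooth muscle and liver (chromosome 10, 121885555 to 121890509, plus strand). It had 359, 422 and 338 normalized counts in Control libraries 1 to 3 and 457, 221 and 422 in knockout libraries 1 to 3. The Control values lay inside the knockout range, whose lowest value came from replicate 2. The log2 fold change was -0.02 (SE 0.31, 95% interval -0.63 to 0.58, DESeq2 adjusted p 0.977), and its sign changed without Control replicate 2 (0.07) or without knockout replicate 2 (0.24).

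Aqp2, the vasopressin-regulated channel of the principal cell's luminal membrane, was the most changed of the genes with an adjusted p. It had 5747, 5581 and 2409 normalized counts in Control libraries 1 to 3 and 17805, 50719 and 23564 in knockout libraries 1 to 3. The lowest knockout library stood above the highest Control library, and knockout replicate 2 stood above both other knockout libraries. The means were 4579 ± 1881 and 30696 ± 17578 (SD, n = 3 each), a 6.70-fold rise (log2 fold change 2.74, SE 0.44, 95% interval 3.67-fold to 12.3-fold, DESeq2 adjusted p 4.91e-08, edgeR adjusted p 0.0255, voom adjusted p 0.0208). The call held when each library was left out in turn, with log2 fold changes from 2.18 without knockout replicate 2 to 3.02 without knockout replicate 1, and 2.44 without Control replicate 3. The transcript made up 0.0135% to 0.0304% of all counts in Control libraries and 0.0925% to 0.227% in knockout libraries. Among 17549 genes ranked by normalized counts per kilobase of exon, Aqp2 stood at places 229, 245 and 605 in the Control libraries and 48, 9 and 20 in the knockout libraries.

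Aqp3, which passes water and glycerol through the blood-side membrane of the same cells, had 3065, 2978 and 1423 normalized counts in Control libraries 1 to 3 and 4009, 6235 and 4947 in knockout libraries 1 to 3. The groups did not overlap, and Control replicate 3 stood lowest. The means were 2488 ± 924 and 5063 ± 1118 (SD, n = 3 each), a 2.03-fold rise (log2 fold change 1.02, SE 0.33, 95% interval 0.38 to 1.67, DESeq2 adjusted p 0.0174). With a library left out the log2 fold change ran from 0.74 without Control replicate 3 to 1.20 without Control replicate 1. Without Control replicate 3 the change was thus below 2-fold. The call was lost without knockout replicate 2 (DESeq2 adjusted p 0.106) or knockout replicate 3 (0.077), and edgeR (0.0966) and voom (0.0895) did not make it.

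The sequences just upstream of these 2 genes are shown because both rose and both serve the same cell. They are the 250 bases before the RefSeq transcript start (promoter table of build GRCm38.p6), each of which matched 1 place in NCBIM37 exactly. For Aqp2 this is chr15:99409237-99409486 on the plus strand and for Aqp3 chr4:41045217-41045466 on the minus strand. The motifs searched on both strands were the cAMP response element TGACGTCA and its shorter form TGACG, which every match of the longer form also holds, then the hypoxia-type core ACGTG and the GATA-type GATAA. Capitals mark matches, and the sequences run 5′ to 3′ toward the start.
Aqp2: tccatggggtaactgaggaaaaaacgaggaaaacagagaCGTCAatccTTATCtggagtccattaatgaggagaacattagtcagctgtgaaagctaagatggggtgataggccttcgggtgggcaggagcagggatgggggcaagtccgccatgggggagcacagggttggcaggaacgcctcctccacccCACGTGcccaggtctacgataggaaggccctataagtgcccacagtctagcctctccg
Aqp3: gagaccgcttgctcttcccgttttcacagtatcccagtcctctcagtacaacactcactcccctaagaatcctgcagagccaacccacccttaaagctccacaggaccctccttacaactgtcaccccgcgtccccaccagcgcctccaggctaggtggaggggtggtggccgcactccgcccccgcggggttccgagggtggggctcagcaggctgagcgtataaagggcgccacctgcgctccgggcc

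The Aqp2 window held TGACG on the reverse strand (211 to 207 bases before the start) and GATAA on the reverse strand (202 to 198). It held ACGTG on both strands as overlapping matches in the same stretch, CACGTG (58 to 53). No motif of this set matched the Aqp3 window, and the full cAMP element matched neither. Over 32851 promoter windows of the same length, 1.55% held the full element, 17.8% held TGACG, 16.6% held ACGTG and 22.6% held GATAA. Of the 9 genes with a promoter in the table, 3 held ACGTG (Aqp2, Aqp5 and Aqp6), 3 held GATAA (Aqp2, Aqp7 and Avpr2) and 2 held TGACG (Aqp2 and Avpr1a). A match is a run of letters and was not tested as a binding site.

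Aqp4 is the other blood-side water channel of the principal cell. It had 1426, 1042 and 1014 normalized counts in Control libraries 1 to 3 and 828, 1267 and 1003 in knockout libraries 1 to 3. The ranges overlapped, with the highest value in Control replicate 1. The log2 fold change was -0.17 (SE 0.24, 95% interval -0.65 to 0.31, DESeq2 adjusted p 0.704, edgeR adjusted p 0.588), which came to 0.00074 without Control replicate 1. Of the 3 principal cell channels, Aqp2 and Aqp3 thus passed the test and Aqp4 did not.

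**Figure D2:**
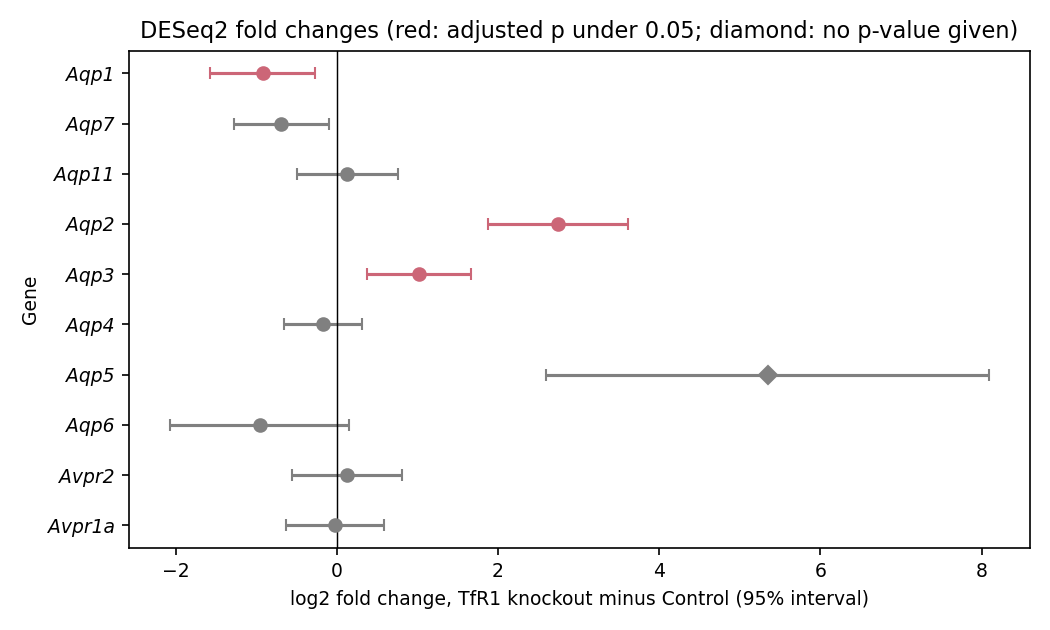
DESeq2 log2 fold changes (TfR1 knockout minus Control) with 95% intervals for the 10 genes. Red points passed an adjusted p under 0.05 (Aqp1 at -0.92, Aqp2 at 2.74 and Aqp3 at 1.02), grey circles did not, and the diamond is Aqp5, to which DESeq2 gave no p-value.

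Aqp2, Aqp5 and Aqp6 lie in a row on the plus strand of chromosome 15, and the 3 neighbors differed in how they compared between groups. Aqp2 (99409487 to 99414976, 4 exons) is followed by Aqp5 (99421280 to 99425260) after 6303 bases and by Aqp6 (99431831 to 99435908) after a further 6570 bases. Aqp5 is known as the luminal water channel of salivary and tear glands and of lung. It had raw counts of 16, 18 and 5 in Control libraries 1 to 3 and 45, 1020 and 78 in knockout libraries 1 to 3, which are 13.2, 16.4 and 5.38 against 44.7, 1305 and 73.8 after normalization. The groups did not overlap, but 1 library, knockout replicate 2, set most of the mean. The fitted log2 fold change was 5.35 (SE 1.40). DESeq2 withheld a p-value because that library was an outlier by Cook's distance, edgeR gave an adjusted p of 0.0704, and without knockout replicate 2 the log2 fold change was 2.34 (DESeq2 adjusted p 0.0036). The voom adjusted p was 0.206. With any 1 library left out, Aqp5 passed in 6 of 6 DESeq2 fits, with adjusted p from 0.000281 to 0.0293. All of these except the fit without knockout replicate 2 still held that outlier, and the filter no longer withheld a p-value, so they do not show a call free of it. Knockout replicate 2 was also the highest library for Aqp2.

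Aqp6 resides in vesicles inside intercalated cells, the acid-base cells of the collecting duct, and conducts anions as well as water. It had 1872, 2079 and 609 normalized counts in Control libraries 1 to 3 and 1494, 369.7 and 489 in knockout libraries 1 to 3. Control replicate 3 lay among the knockout values and knockout replicate 1 among the Control values, so the groups overlapped widely. The log2 fold change was -0.95 (SE 0.57, 95% interval -2.06 to 0.15, DESeq2 adjusted p 0.268, edgeR adjusted p 0.355). Without knockout replicate 1 it was -1.82 and passed (DESeq2 adjusted p 0.00194).

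Aqp1, the constitutive channel of the proximal tubule and thin limb and also of vessels and red cells, was the one gene called lower (chromosome 6, 55286426 to 55298549, plus strand). It had 12647, 13673 and 6977 normalized counts in Control libraries 1 to 3 and 6246, 7486 and 3916 in knockout libraries 1 to 3. Control replicate 3 lay below knockout replicate 2, so the groups overlapped. The means were 11099 ± 3606 and 5883 ± 1812 (SD, n = 3 each), with a log2 fold change of -0.92 (SE 0.33, 95% interval -1.57 to -0.26, DESeq2 adjusted p 0.0422). The call was made in 2 of 6 fits with a library left out (without Control replicate 3 or knockout replicate 2) and not by edgeR (0.127) or voom (0.136), while the log2 fold change ran from -1.16 to -0.69 in those 6 fits.

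Aqp7 passes glycerol and water in the brush border of the straight proximal tubule and also serves fat cells (chromosome 4, 40980107 to 40995172, minus strand). It had 376, 419.9 and 231 normalized counts in Control libraries 1 to 3 and 257, 175 and 206 in knockout libraries 1 to 3. Control replicate 3 again fell inside the knockout range. Its log2 fold change of -0.69 did not pass (SE 0.30, 95% interval -1.28 to -0.10, DESeq2 adjusted p 0.108), and of the 6 fits with a library left out it passed in 1, without Control replicate 3 (0.00678). Aqp11 is an intracellular aquaporin of the proximal tubule, and mice without it develop cystic kidneys (chromosome 7, 104874889 to 104886757, minus strand). It had 421, 349 and 315 normalized counts in Control libraries 1 to 3 and 281, 582 and 328 in knockout libraries 1 to 3. The highest and the lowest library both came from the knockout group. For this gene the log2 fold change was 0.13 (SE 0.32, 95% interval -0.50 to 0.76, DESeq2 adjusted p 0.834), and it was -0.25 without knockout replicate 2.

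Levels of different genes were compared as normalized counts per kilobase of merged exons. In Control kidneys the order by mean was Aqp1 (4225 ± 1373), Aqp2 (3234 ± 1328), Aqp3 (1361 ± 505), Aqp6 (738 ± 386), Aqp11 (274 ± 40.9), Aqp4 (218 ± 43.3), Avpr2 (159 ± 59.1), Avpr1a (140 ± 16.3), Aqp7 (121 ± 34.9) and Aqp5 (6.99 ± 3.39, SD, n = 3 each). Of the neighbors in this order, the libraries did not overlap between Aqp2 and Aqp3 and between Aqp7 and Aqp5, and all other neighbors overlapped. In knockout kidneys the order was Aqp2 (21678 ± 12414), Aqp3 (2768 ± 611), Aqp1 (2239 ± 689.9), Aqp6 (381 ± 299.7), Aqp11 (301 ± 122), Aqp5 (285 ± 432), Aqp4 (194 ± 41.5), Avpr2 (174 ± 47.0), Avpr1a (137 ± 47.7) and Aqp7 (75.2 ± 14.5). There the libraries did not overlap between Aqp2 and Aqp3 and between Aqp1 and Aqp6. The place of Aqp5 rested on knockout replicate 2, since its levels per kilobase were 26.8, 783 and 44.3, and in knockout replicates 1 and 3 it was the lowest of the 10 genes.

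The 8 aquaporins can also be read as shares of their common per-kilobase level within a library. Aqp1 held 39.5%, 42.0% and 44.7% in Control libraries 1 to 3 and 13.0%, 6.51% and 6.89% in knockout libraries 1 to 3. Aqp2 held 33.3%, 31.8% and 28.6% in the Control libraries and 68.5%, 81.8% and 76.9% in the knockout libraries. Aqp1 was thus the largest share in every Control library and Aqp2 in every knockout library. A share also falls when another channel rises. The normalized count of Aqp1 itself was 1.89-fold lower, its groups overlapped, and neither edgeR nor voom called it. Aqp3 held 13.1% to 13.8% in Control libraries and 7.79% to 12.5% in knockout libraries, a lower share beside a higher count.

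**Figure D3:**
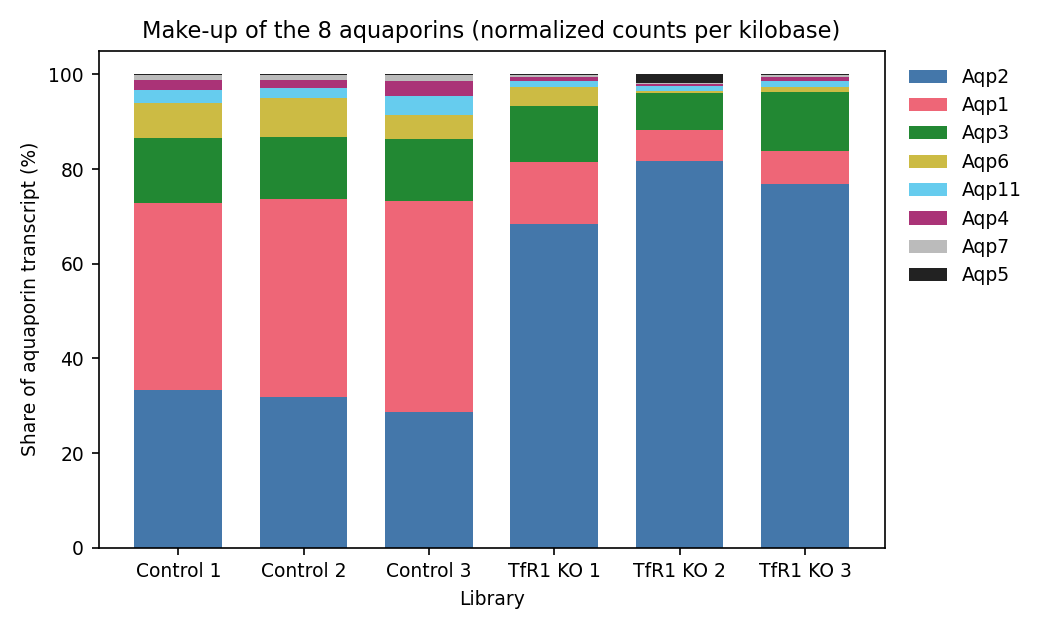
Share (%) of each of the 8 aquaporins in their summed normalized counts per kilobase, for each of the 6 libraries. Aqp2 takes 28.6% to 33.3% in Control and 68.5% to 81.8% in TfR1 knockout libraries, and Aqp1 39.5% to 44.7% and 6.51% to 13.0%.

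Ratios within a library ask whether Aqp2 moved with its receptor and with other genes of its cell. They are differences of log2 normalized counts plus 1, and with 3 libraries in each group the smallest p of the two-sided exact permutation test is 0.1. Aqp2 relative to Avpr2 was 3.38, 3.30 and 3.19 in Control libraries 1 to 3 and 4.76, 6.90 and 5.80 in knockout libraries 1 to 3. The groups did not overlap, and the ratio was 5.76-fold higher in knockout kidneys (log2 difference 2.53, exact permutation p = 0.1). Per kilobase, there were 18.7 to 21.2 Aqp2 counts for each Avpr2 count in Control libraries and 55.1 to 243 in knockout libraries.

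Aqp2 relative to the mean of 12 principal cell genes, which hold none of the 10 genes described here, was 1.78, 1.72 and 1.19 in Control libraries 1 to 3 and 3.03, 5.01 and 3.83 in knockout libraries 1 to 3. Again every knockout library stood above every Control library, by 5.27-fold on average (log2 difference 2.40, exact permutation p = 0.1, the smallest possible). The difference ran from 1.87 to 2.86 with each library left out and was 2.24 without Kcnj1, a potassium channel that the thick ascending limb also makes. As descriptions with no test, the same log2 difference was 1.62 for Aqp2 relative to Aqp3, 2.87 for Aqp2 relative to Aqp4 and 1.26 for Aqp3 relative to Aqp4, and in each the groups did not overlap.

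For Aqp1 relative to the mean of 16 proximal tubule genes, the values were 0.69, 0.73 and 0.86 in Control libraries 1 to 3 and 0.67, 1.29 and 0.70 in knockout libraries 1 to 3. The groups overlapped (log2 difference 0.13, exact permutation p = 0.9). Against the median of the list instead of its mean the difference was -0.59 (exact permutation p = 0.2), and without knockout replicate 2 it was -0.07, so its direction was not settled.

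**Figure D4:**
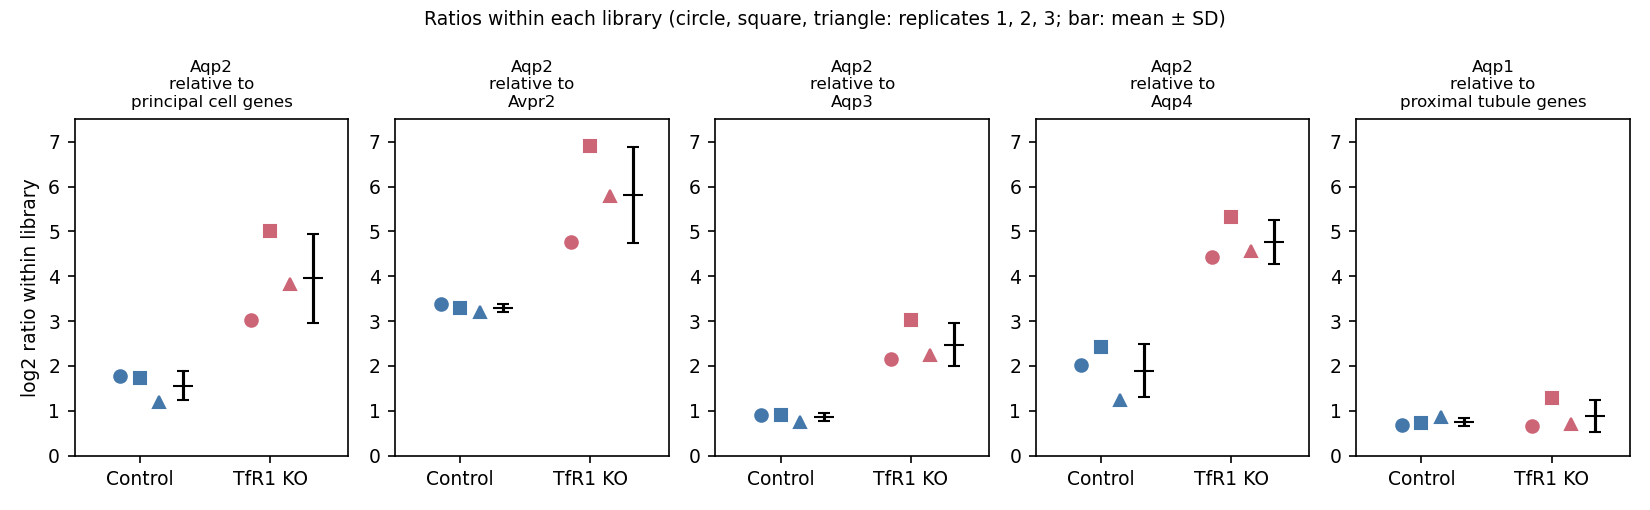
Log2 ratio within each library for 5 pairs, on 1 common scale, in the 3 Control and 3 TfR1 knockout libraries, with circles, squares and triangles for replicates 1, 2 and 3 and a bar for the mean ± SD. In the first 4 panels (Aqp2 relative to principal cell genes, Avpr2, Aqp3 and Aqp4) every knockout library is above every Control library, and in the last (Aqp1 relative to proximal tubule genes) the groups overlap.

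Genes downstream of the receptors were counted on lists, beside a median log2 fold change of 0.0071 over all genes tested. Of 22 genes of vasopressin and cAMP signaling, 1 rose and 0 fell (median -0.08, edgeR 0 and 0). The one was Prkar2a, a regulatory subunit of protein kinase A, at 987, 1025 and 632 normalized counts in Control libraries 1 to 3 and 1263, 1530.2 and 1368 in knockout libraries 1 to 3 (log2 fold change 0.65, DESeq2 adjusted p 0.044). Gnas, the stimulatory G protein subunit to which Avpr2 couples, had 17554, 18171 and 17379.7 against 14587, 12269.5 and 14204 (log2 fold change -0.37, adjusted p 0.052) and missed the threshold although its groups did not overlap. With TMM scaling the list had 0 genes called higher and 1 lower, and with total-count scaling it had 0 higher. With a library left out, 0 rose in 5 of 6 fits and 2 rose without knockout replicate 1. Adcy6, an adenylyl cyclase of the collecting duct, had 4427 to 6959 in Control and 4999 to 7401 in knockout libraries.

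Of 10 genes of V1a receptor signaling, 2 rose and 0 fell (median 0.18, edgeR 1 and 0). Itpr3, a calcium release channel of the endoplasmic reticulum, had 649, 722 and 695 normalized counts in Control libraries 1 to 3 and 2313, 1732 and 2389 in knockout libraries 1 to 3, a 3.12-fold rise (1.64 on the log2 scale, DESeq2 adjusted p 2.58e-15). Its relatives Itpr1 and Itpr2 did not pass, with log2 fold changes of -0.23 and 0.01. Plcb4, a phospholipase C, rose by a log2 fold change of 0.72 (DESeq2 adjusted p 0.0195).

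Of 18 genes that move AQP2 vesicles, 3 rose and 0 fell (median 0.18), and edgeR called 0 in either direction. The count was 0 without Control replicate 1, without Control replicate 2 or without knockout replicate 3. They were Rab3d, a small GTPase of secretory vesicles (log2 fold change 0.73), Stxbp2, a syntaxin-binding protein (0.55), and Dnm2, the dynamin of endocytosis (0.48). All 3 values lay below the 1.02 of Aqp3.

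The urea and osmolyte genes divided. Of 9 tested, 2 rose and 2 fell (median -0.03, edgeR 0 and 2). Slc6a12, the betaine transporter by which medullary cells take up osmolyte, had 269, 269 and 159 normalized counts in Control libraries 1 to 3 and 30.8, 26.9 and 15.1 in knockout libraries 1 to 3 (-3.27 on the log2 scale, DESeq2 adjusted p 6.68e-15). Slc14a1, the urea transporter of the vasa recta and red cells, had 262, 234 and 254 against 99.4, 74.2 and 82.3 (log2 fold change -1.55, DESeq2 adjusted p 2.57e-09). Slc14a2, the vasopressin-regulated urea transporter of the inner medullary collecting duct, overlapped between groups (log2 fold change -0.69, adjusted p 0.31). The taurine transporter Slc6a6 (log2 fold change 0.79) and the kinase Sgk1 (0.75) were the 2 that rose, and with a library left out 0 rose in 5 of 6 fits, all but that without knockout replicate 1. Of 5 glycerol genes, 1 rose and 0 fell (median 0.45, edgeR 1 and 0), and it was the triglyceride lipase Pnpla2 (log2 fold change 1.29, DESeq2 adjusted p 3.73e-05).

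Genes that mark principal cells and the collecting duct had smaller log2 fold changes than Aqp2, and not all in its direction. Of the 12 principal cell genes, 4 rose and 1 fell (median log2 fold change 0.63, edgeR 1 and 1). Fxyd4, which modulates the sodium pump (0.94), Ptges, a prostaglandin E synthase (0.84), the transcription factor Gata3 (0.79) and the sodium channel subunit Scnn1b (0.65) rose, and Kcnj1 fell by 1.44 on the log2 scale. With total-count scaling 2 rose. The summed level of the list was 22627 to 41847 normalized counts in Control and 40588 to 49380 in knockout libraries, which overlapped. Tfcp2l1 alone made up 14782, 17222 and 9747 of the sums in Control libraries 1 to 3 and 22170, 21038.5 and 20245 in knockout libraries. That gene did not pass (log2 fold change 0.60, DESeq2 adjusted p 0.069). Hsd11b2, the enzyme that protects the mineralocorticoid receptor from glucocorticoids, had 5198, 5405 and 2129 in Control and 6016, 1176 and 2849 in knockout libraries 1 to 3, lowest in knockout replicate 2, the library in which Aqp2 was highest. Of 13 collecting duct and ureteric epithelium genes, 4 rose and 0 fell (median 0.47, edgeR 1 and 0), namely the keratins Krt19 (1.99), Krt18 (1.23) and Krt8 (0.67) and the epithelial transcription factor Elf3 (1.37), with summed levels of 27359 to 41075 in Control and 39257 to 52904 in knockout libraries. The part of this shift in the rises of Aqp2 and Aqp3 was not tested.

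For Aqp6, the intercalated cell list had 1 gene higher and 4 lower of 11 (median -0.45, edgeR 0 and 3), with Slc4a1, the chloride-bicarbonate exchanger of type A cells, at -1.75, Slc4a9 at -1.20, pendrin, Slc26a4, at -1.18 and the proton pump subunit gene Atp6v1b1 at -0.60 on the log2 scale, and another pump subunit gene, Atp6v0d2, at 1.03. The summed level overlapped (22322 to 31711 in Control and 26771 to 34155 in knockout libraries). For Aqp1 and Aqp7, 2 of 16 proximal tubule genes rose and 5 fell (median -0.44, edgeR 2 and 3). The amino acid transporter Slc7a13 fell by 6.04 on the log2 scale, the glucose transporter Slc5a2 fell by 5.12, and Slc22a30, Gatm and Lrp2 also fell. Pck1, the gluconeogenic enzyme, rose by 2.12 and the organic anion transporter Slc22a6 rose by 1.79. The list sum overlapped, at 113404 to 222055 in Control and 176923 to 313639 in knockout libraries. Pck1 alone made up 88960, 171509 and 88676 of the sums in knockout libraries 1 to 3, against 27010, 33370.5 and 19947 in Control. By mean log2 level, which weighs each gene alike, the list had 12.94, 13.01 and 11.91 in Control libraries 1 to 3. In knockout libraries 1 to 3 that mean was 11.94, 11.58 and 11.24, and only Control replicate 3 fell within the knockout range. In the thick ascending limb, a segment impermeable to water, 8 of 10 genes fell and 0 rose (median -1.49, edgeR 0 and 6).

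**Figure D5:**
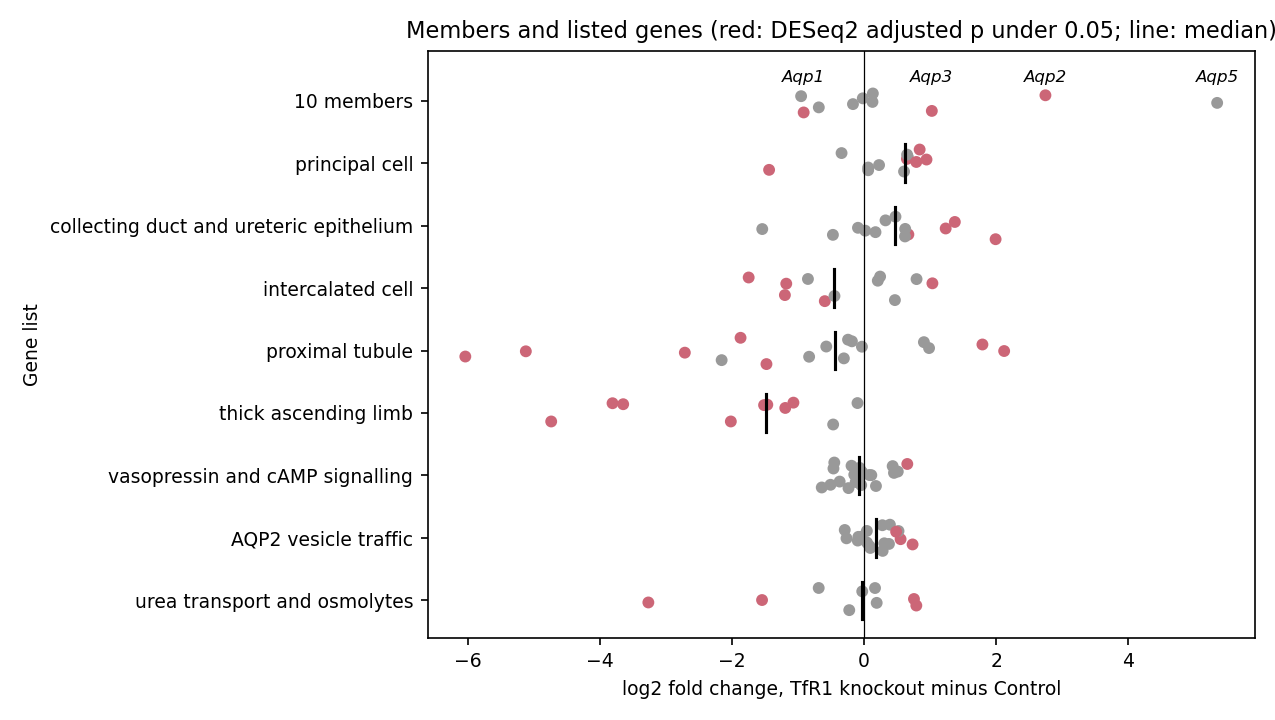
DESeq2 log2 fold change (horizontal axis, TfR1 knockout minus Control) of the 10 genes in the top row and of the genes of 8 lists below, with red points for an adjusted p under 0.05 and a black line for each list's median. Aqp2 at 2.74 lies above every gene of the principal cell and collecting duct lists, of which the highest is Krt19 at 1.99.

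Other cells that carry Aqp1, Aqp7 or Avpr1a were checked in the same way. Of 10 endothelial genes 1 rose (Flt1) and 0 fell (median -0.07, edgeR 0 and 0), Flt1 was not called without Control replicate 1 or 2 or knockout replicate 2 or 3, and their sums overlapped (25851 to 41047 in Control and 27499 to 35864 in knockout libraries). Of 8 vascular smooth muscle genes 0 rose and 2 fell (Cnn1 and Smtn, median -0.19, edgeR 0 and 0). Of 4 erythroid genes tested, 0 rose and 1 fell (Slc4a1, which intercalated cells also make, edgeR 0 and 1), and 4 hemoglobin genes were listed at 0 in every library. Alas2, also on the erythroid list, had 1222 to 5399 normalized counts, so these 0 values cannot be read as absent erythroid RNA. Their cause was not tested. Of 8 adipocyte genes 2 rose (Lep and Plin4) and 0 fell (median 0.13, edgeR 1 and 0), and of 8 podocyte genes 1 rose (Wt1) and 0 fell (edgeR 1 and 0). Macrophage genes were higher in knockout kidneys, with 5 of 9 called (Lyz2, C1qc, C1qa, C1qb and Cd68) and 0 lower (median 1.46, edgeR 4 and 0) and sums of 2873 to 4823 in Control and 6403 to 9626 in knockout libraries, which did not overlap. The part of any of these lists in the aquaporin results was not tested.

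The genes whose levels over the 6 libraries were most alike to those of each gene, by Pearson r of log2 normalized counts among 12113 genes with a mean of at least 100, are given as a description. With 6 points that fall in 2 groups and so many genes compared, the highest r was at least 0.9944 for every gene but Aqp4. For Aqp2 they were Ubxn2a (0.9999), Cers2 (0.9963) and Mtpn (0.996), whose own log2 fold changes were 0.57, 0.45 and 0.29. For Aqp3 they included Senp2 (0.9971) and Irgq (0.9961). They were, for Aqp1, Pcca (0.9973), Fam60a and Park7, and for Aqp6 Dusp23 (0.9987), Borcs5 and Dnajc30. The closest gene was Csad for Aqp7 (0.9977), Hnrnph2 for Aqp11 (0.9944), March5 for Aqp5 (0.9985), Eml2 for Avpr2 (0.9984), Itpripl1 for Avpr1a (0.9966) and Zrsr2 for Aqp4 (0.9624, the lowest of the 10). The Aqp4 gene lies on chromosome 18 (15547903 to 15562193, minus strand).

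The remaining members of both families were at or near the limit of detection, apart from the oxytocin receptor Oxtr. Raw counts in Control libraries 1 to 3 and knockout libraries 1 to 3 were 4, 5, 7, 2, 0 and 5 for Mip, the lens water channel, 8, 4, 1, 0, 4 and 3 for Aqp8, 4, 5, 13, 10, 2 and 3 for Aqp9, and 0, 1, 0, 0, 0 and 0 for Aqp12. The pituitary vasopressin receptor Avpr1b had 0 counts in all 6 libraries, which allows up to 3 in each by counting error alone. Avp, the hormone's own gene, had 0 in the Control libraries and 1, 0 and 2 in the knockout libraries. Oxtr had 391, 32 and 72 raw counts in the Control libraries and 47, 31 and 65 in the knockout libraries, with the high value in Control replicate 1.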

How the data were processed

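Whole mouse kidney RNA was sequenced in 6 libraries (3 Control, 3 TfR1 knockout), grouped and numbered as labeled. The study gives 3 mice per model and wild type littermates as controls. The authors deposited raw counts per gene, with no normalization. The submitters' processing notes and the study's methods name CASAVA 1.8.2, Trimmomatic, TopHat2 2.0.11 and HTSeq, with mm9 (NCBIM37) as the build. Unique counting lowers genes with near-identical copies.

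Counts were tested with the DESeq2 1.42.0 Wald test in R 4.3.3, the tool the study names (median-ratio size factors, independent filtering tuned at 0.05, which kept means of at least 3.62). Benjamini-Hochberg adjustment was over 16468 genes. Cook's distance left 29 genes without a p-value. The code was tested on simulated data. edgeR 4.0.16 (quasi-likelihood test, TMM scaling, its own filter on low counts) and limma 3.58.1 with voom were set beside it. Ratios used a pseudocount of 1 and exact permutation tests (SciPy 1.17.1). Lengths came from the GENCODE annotation of NCBIM37 and promoters from RefSeq (9 of 10 genes matched). Counting error is small for the 10 genes except Aqp5 but large for genes with few counts, such as Mip, Aqp8, Avp and Lep, and precision is set by having 3 libraries in each group.

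The genes described and the lists were chosen with earlier results of these data known. Named genes were the 10 genes, their other family members, up to 3 called genes per list with the largest fold changes, the 3 most alike genes per gene, and Tfrc (1 of the most alike genes is not reported here). List genes that did not pass are named with values only. Where a list had 5 or fewer calls in a direction, further called genes were named after their values were seen. Protein features were not run because no protein table was used here. Same-numbered libraries did not deviate together (correlations -0.04, 0.05 and 0.09).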

Additional observations from a re-analysis of the deposited data

How the results depend on the processing

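Aqp2 was called higher under every alternative run: edgeR, voom, 3 other scalings, other filters, the replicate block and each library left out. Other calls moved. All genes called higher and lower were 493 and 428 with edgeR, 485 and 456 with voom, 728 and 735 with a 2-fold change added, and 658 to 1531 and 571 to 1674 with each library left out, with over 1.5 times fewer in either direction without Control replicate 1 or 2, and 844 and 651 without TfR1 knockout replicate 3. Of the 10 genes, 1 was higher and 0 lower with edgeR and with voom. The number lower was 0 with independent filtering off (Aqp1 adjusted p 0.051) or a 2-fold change added, 2 without Control replicate 3 and TfR1 knockout replicate 2 together (Aqp1 and Aqp7, chosen after seeing the data), and 0 to 2 with each library left out, when 2 to 3 were higher.

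Signs changed for genes that did not pass. The log2 fold change of Aqp11 was -0.0036 with total-count scaling, which shifted the median of all genes to -0.097, -0.25 without TfR1 knockout replicate 2 and -0.34 without that library and Control replicate 3. Aqp4 came to 0.00074 without Control replicate 1. Avpr2 came to -0.16 without Control replicate 3, -0.12 without TfR1 knockout replicate 1 and -0.05 without Control replicate 3 and TfR1 knockout replicate 2. Avpr1a came to 0.07 without Control replicate 2, 0.24 without TfR1 knockout replicate 2 and 0.17 without Control replicate 3 and TfR1 knockout replicate 2. Aqp1 relative to proximal tubule genes was -0.59 against the list median and -0.073 without TfR1 knockout replicate 2 (range -0.073 to 0.24 with each library left out). The cause was not tested. With each library left out, the log2 fold change ran from -0.25 to 0.33 for Aqp11, -0.34 to 0.00074 for Aqp4 (-0.43 without Control replicate 3 and TfR1 knockout replicate 2), -0.16 to 0.29 for Avpr2 and -0.21 to 0.24 for Avpr1a.

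The labels' replicate numbers as a block gave 1081 higher and 1082 lower genes and, of the 10, 3 higher (Aqp2, Aqp3 and Aqp5) and 2 lower (Aqp1 and Aqp6). Mean same-numbered differences were 2.40 for Aqp2 relative to principal cell genes, 0.13 for Aqp1 relative to proximal tubule genes and 2.53 for Aqp2 relative to Avpr2. With groups of equal size these equal the differences of group means by arithmetic, so the block could not change them. The numbers did not pair the libraries, so the block fit is an alternative only.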
